A study of Mus musculus with 59 samples.

Results

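The comparison asked which genes respond to the peptide combination IP118/PY115 differently in the hypothalamus and the brainstem. It is a difference of differences on the log2 scale: the change in the paraventricular nucleus of the hypothalamus (PVN), IP118/PY115 over vehicle, minus the same change in the nucleus of the solitary tract (NTS). It used all 40 libraries of these regions, out of 59 in the series: 10 IP118/PY115 PVN, 10 vehicle PVN, 10 IP118/PY115 NTS and 10 vehicle NTS. A positive difference means that a gene changed more upward in PVN, and a negative one that it changed more upward in NTS. Every mouse was of the C57BL/6 strain with no allele named, was injected intraperitoneally with IP118/PY115 or vehicle, and was killed 4 h later. Dose, diet, sex and age are not given in the sources used here. Laser capture took 4 mm² of each region per animal from 10 µm frozen sections. The libraries are bulk tissue, in which fewer cells of a type and less RNA per cell cannot be told apart. The labels do not tie libraries to animals, although each animal gave tissue of all regions, and p-values take PVN and NTS libraries as independent.

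PYY and GLP-1 are gut hormones of satiety, and the study activates the receptors of both. The GLP-1 receptor raises cAMP in neurons and the Y2 receptor for PYY lowers it. The NTS receives the vagal afferents of the gut and holds neurons that make GLP-1 and noradrenaline and project to the PVN. The PVN holds the neurons that make corticotropin-releasing hormone, which start glucocorticoid secretion, beside vasopressin, oxytocin and thyrotropin-releasing hormone neurons. Neurons that fire switch on immediate early genes such as Fos within minutes and effector genes later, and glucocorticoids induce their own set of genes in most brain cells.

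Levels are CPM, the deposited gene counts scaled to library size with TMM factors, and changes are log2 fold changes ± SE from an edgeR quasi-likelihood fit of the 40 libraries. A gene was called when its Benjamini-Hochberg adjusted p (FDR), over all 14077 genes tested, was under 0.05. Library totals ran from 3964093 to 16244376 counts in PVN and from 6677086 to 28510118 counts in NTS. Marker levels set the regions apart. The summed level of 13 PVN identity genes was 12626 to 19128 CPM in IP118/PY115 PVN and 9419 to 22396 CPM in vehicle PVN libraries. In IP118/PY115 and vehicle NTS libraries it was 289.7 to 466 and 304 to 399.7 CPM. The 17 NTS identity genes summed to at most 99.4 CPM in any PVN library, where Dbh, the noradrenaline-making enzyme, did not pass 1.03 CPM, and to 1279 to 1844 CPM in IP118/PY115 NTS and 1342 to 1907 CPM in vehicle NTS libraries. Many of the 17 are Hox genes, so their sum separates brainstem from hypothalamus and does not mark the NTS alone. The summed level of 6 cholinergic motor neuron genes varied widely, from 55.3 to 377 CPM in IP118/PY115 NTS and 58.1 to 237 CPM in vehicle NTS libraries.

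Some libraries stood apart. Libraries were placed on a scale with 0 at the mean of the vehicle and 1 at the mean of the treated libraries numbered 2 to 10. The scale used the 50 genes of smallest p in each region in the fit without the libraries numbered 1. The IP118/PY115 libraries numbered 1 lay at -0.119 in PVN and -0.163 in NTS, and the vehicle libraries numbered 1 at 0.909 in PVN and 1.07 in NTS. The other treated libraries lay at 0.804 or above and the other vehicle libraries at 0.321 or below. The genes were chosen by the contrast of these other libraries, so their own separation was favoured in advance. Only the libraries numbered 1 had no part in that choice. The 4 libraries numbered 1 thus lie with the other treatment in both regions. Results are therefore given with all libraries under the deposited labels or without these 4, as stated beside each value. Their choice used the measured response itself, which makes p-values computed in their absence too small. In IP118/PY115 NTS library 9, Trh stood at 43.6 CPM, Crh at 56.1 CPM and the complement-like synaptic protein gene C1ql1 at 98.2 CPM, against at most 1.60, 4.89 and 10.4 CPM in the other NTS libraries.

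Under the deposited labels few genes passed the test of the difference itself. Cyp51 and Fam117a were called with a positive difference (2 of 14077 genes, 0.0142%), and no gene was called with a negative one (0.0%). At an unadjusted p under 0.05 there were 615 genes, 291 positive and 324 negative, and DESeq2 called 17 positive and 3 negative. Within each region the same fit called 117 genes up (0.831%) and 28 down (0.199%) in PVN, and 16 up (0.114%) and 2 down (0.0142%) in NTS. A gene called in one region only is therefore not shown to differ between the regions unless its difference was also called.

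Without the 4 libraries numbered 1, the difference was called for 50 of 14053 genes, 35 positive (0.249%) and 15 negative (0.107%). The same fit called 303 genes up (2.16%) and 111 down (0.79%) in PVN and 156 up (1.11%) and 31 down (0.221%) in NTS. Of the 50 genes, 49 were also tested in all 40 libraries, where 49 had the same direction, 48 had an unadjusted p under 0.05 and 2 were called. The fits share every library but those 4, so the agreement in direction and unadjusted p was largely fixed in advance. The 35 genes with a positive difference were nearly all PVN rises: 33 were called up in PVN and 0 in NTS, and the median change was 0.74 in PVN and -0.05 in NTS. The 15 with a negative difference were mostly NTS rises: 13 were called up in NTS, 3 were called up and 3 down in PVN, and the median change was -0.02 in PVN and 1.48 in NTS.

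**Figure D1:**
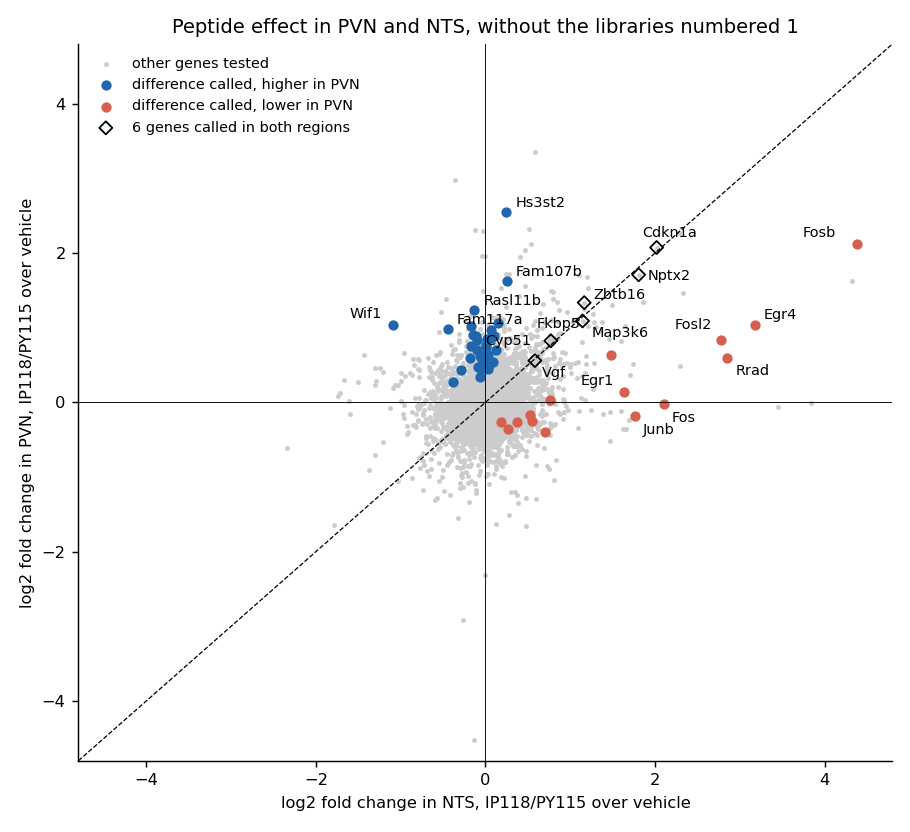
Log2 fold change of IP118/PY115 over vehicle in NTS (horizontal axis) and in PVN (vertical axis) for 14036 genes, from the fit without the 4 libraries numbered 1; 2 genes lie outside the axes. Blue points are genes whose difference was called positive, most of them along the vertical axis, red points are those called negative and lie to the right, black diamonds are 6 genes called in both regions, and the dashed line marks equal effects.

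The genes that responded more in PVN had varied roles. Hs3st2 encodes an enzyme that adds sulfate to heparan sulfate chains at the cell surface. Hs3st2 stood at 3.03 to 30.5 CPM (median 19.9) in IP118/PY115 PVN libraries, against 1.44 to 16.4 CPM (median 3.34) in vehicle PVN libraries. In NTS it stood at 20.4 to 26.2 CPM (median 23.4) with IP118/PY115 and at 14.9 to 23.9 CPM (median 19.6) with vehicle. Most treated PVN libraries lay in the range of the NTS libraries, and the PVN groups overlapped only through the libraries numbered 1, at 3.03 CPM in the treated and 16.4 CPM in the vehicle group. Its change was 1.86 ± 0.28 in PVN and 0.23 ± 0.24 in NTS, and the difference of 1.63 ± 0.37 did not pass (FDR = 0.119). Without the libraries numbered 1 the difference was 2.30 ± 0.20 (FDR = 2.05e-10), and all 9 treated PVN libraries lay above all 9 vehicle ones.

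Cyp51, the sterol demethylase of cholesterol synthesis, was called with all libraries. It stood at 119 to 233 CPM (median 195) in IP118/PY115 PVN libraries, against 109.8 to 198 CPM (median 123) in vehicle PVN libraries. In NTS the levels were 156 to 219 CPM (median 188) with IP118/PY115 and 188 to 225 CPM (median 202) with vehicle. The change was 0.55 ± 0.08 in PVN and -0.11 ± 0.08 in NTS, a difference of 0.66 ± 0.12 (FDR = 0.0130). Without the libraries numbered 1 it was 0.81 ± 0.08, and the PVN groups of 9 did not overlap. With all 40 libraries, the call was lost with log10 library total as a covariate (0.62, FDR = 0.0994), with an oligodendrocyte score (0.59, FDR = 0.0785) and without the 3 vehicle PVN libraries numbered 5553 to 5555, which were numbered apart from the rest (0.63, FDR = 0.0700). Of 23 cholesterol synthesis genes tested, 13 had a positive and 10 a negative difference, the median was 0.05 against -0.02 over all genes, and Cyp51 was the 1 gene called for the difference and for the PVN change.

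Fam117a, a gene of little known function, was the other called gene, and its estimates in the regions had opposite signs. It stood at 3.40 to 11.95 CPM (median 7.55) in IP118/PY115 PVN libraries and 2.27 to 5.68 CPM (median 4.11) in vehicle PVN libraries. In NTS it stood at 5.15 to 8.60 CPM (median 6.28) with IP118/PY115 and at 5.49 to 16.5 CPM (median 8.27) with vehicle. The rise in PVN was called (0.87 ± 0.18, FDR = 0.00833) and the NTS change was not (-0.41 ± 0.17, FDR = 0.626), while their difference was 1.29 ± 0.25 (FDR = 0.0428). The groups overlapped in both regions, and the call was lost in 17 of 40 fits that left out 1 library, where its FDR was at most 0.126. It was also lost with log10 library total (FDR = 0.245) or the oligodendrocyte score (FDR = 0.207), without the late-numbered vehicle PVN libraries (FDR = 0.0700) and without the 2 libraries of low total (FDR = 0.115).

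The other positive differences of smallest p were those of genes called up in PVN and not called in NTS. Prss23, a secreted serine protease, stood at 8.95 to 21.7 CPM (median 15.3) in treated and 6.02 to 11.3 CPM (median 7.30) in vehicle PVN libraries, with medians of 7.23 and 7.09 CPM in treated and vehicle NTS (difference 0.90 ± 0.19, FDR = 0.0872). Igfbp3, a secreted binding protein for insulin-like growth factors, had a PVN change of 0.78 ± 0.11 and an NTS change of 0.11 ± 0.11 (difference 0.68 ± 0.16). Of the signalling genes, the difference was 0.63 ± 0.14 for Akap7, which anchors protein kinase A, the kinase that cAMP activates, and 0.52 ± 0.12 for Pde9a, a phosphodiesterase of cyclic GMP. It was 0.91 ± 0.21 for Kcnv1, a silent potassium channel subunit, 0.56 ± 0.12 for Ift57, a part of the transport complex of cilia, and 0.44 ± 0.09 for Fam222b. None of these 7 differences passed with all libraries (FDR 0.0872 to 0.119), and all 7 passed without the libraries numbered 1. Without those libraries their differences ran from 0.49 for Fam222b to 1.06 for Kcnv1.

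Further genes were called by edgeR without the libraries numbered 1 and not with all 40. Some of the 50 passed under other settings that left no library out: DESeq2 called 18 of them, each region fitted alone 18 and the fit of all 59 libraries 11. The limma-voom fit called 24, with quality weights that give less weight to libraries far from their group. These settings reuse the libraries that gave the 50 genes, so the counts are no separate support. Fam107b, a cytoskeletal gene of the family of the stress gene Fam107a, stood at 41.1 to 74.1 CPM (median 53.9) in the 9 treated and 12.2 to 27.3 CPM (median 16.9) in the 9 vehicle PVN libraries, and at 15.8 to 22.2 CPM (median 19.1) and 12.1 to 21.9 CPM (median 15.05) in the treated and vehicle NTS libraries (difference 1.36 ± 0.17). Its PVN groups of 9 did not overlap, and its NTS groups did. Rnf169, a ubiquitin ligase-like protein of the DNA damage response, stood at 61.7 to 82.1 CPM (median 70.7) and 28.2 to 45.8 CPM (median 40.4) in treated and vehicle PVN libraries (difference 0.99 ± 0.12). The differences were 1.36 ± 0.25 for the small GTPase gene Rasl11b, 1.19 ± 0.27 for Nmbr, the neuromedin B receptor, and 0.93 ± 0.14 for Galnt15, which starts sugar chains on mucin-type glycoproteins. They were 0.91 ± 0.16 for the histone demethylase gene Kdm1b, 0.74 ± 0.13 for F2r, the thrombin receptor, and 0.46 ± 0.07 for Tsc22d1, a leucine zipper regulator. Secreted factors were Edn3, an endothelin (0.90 ± 0.21), the guidance cue Sema3e (0.78 ± 0.18) and Wif1, an inhibitor of Wnt ligands (2.12 ± 0.50). Wif1 stood at 5.67 to 17.9 CPM (median 7.36) in treated and 7.87 to 53.01 CPM (median 14.05) in vehicle NTS libraries, and its change was called in neither region (FDR = 0.231 in PVN and 0.0536 in NTS). With all 40 libraries the differences of Fam107b, Rnf169 and the other 9 genes just given ran from 0.36 for Tsc22d1 to 1.42 for Wif1 (FDR 0.142 or above). Other positive calls included Zfp516, 2010300C02Rik, Greb1l, Spata13, Ppm1d, Carmil1, Stk38l, Slc22a23, Phf8, Abhd17b, Stt3b, Cpeb2 and Orc1, the last of which was too low to be tested in all 40 libraries.

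**Figure D2:**
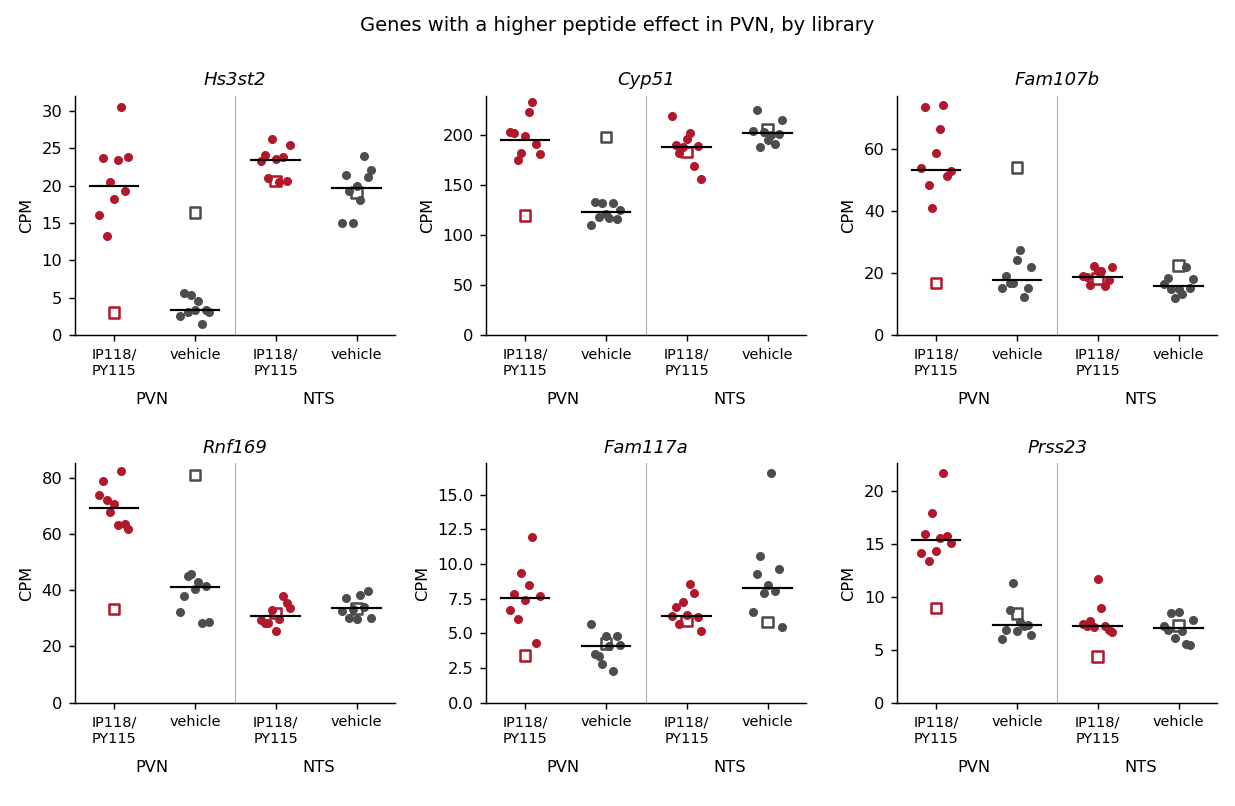
CPM in each library for 6 genes with a positive difference, IP118/PY115 left of vehicle in each region, PVN left of NTS. Filled points are libraries numbered 2 to 10, open squares the libraries numbered 1 and bars the medians of 10; the treated PVN points of Hs3st2 lie at 13.2 to 30.5 CPM, above the vehicle PVN points at 1.44 to 5.56 CPM, while both open squares lie with the other group.

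Of the 15 genes that responded more in NTS without the libraries numbered 1, 6 were on the list of immediate early transcription factors. Another 2 were on that of late effectors of neuronal activity. Each list had 20 genes tested, and 0.107% of all 14053 genes were called negative. With all libraries 0 members of either list were called, and the lists were chosen with earlier results of these data known. Fos, whose induction marks recently active neurons, stood at 23.5 to 103 CPM (median 46.7) in IP118/PY115 PVN libraries, against 28.2 to 84.1 CPM (median 63.4) in vehicle PVN libraries. In NTS the levels were 8.61 to 87.4 CPM (median 66.3) with IP118/PY115 and 6.87 to 74.5 CPM (median 16.2) with vehicle. The PVN groups covered much the same range, while the NTS groups overlapped only through the libraries numbered 1. The changes were -0.10 ± 0.34 in PVN and 1.52 ± 0.35 in NTS, and the difference of -1.62 ± 0.48 did not pass (FDR = 0.475). Without the libraries numbered 1 it was -2.12 ± 0.37 (FDR = 0.00139).

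Junb, a partner of Fos in the AP-1 transcription factor, showed a similar pattern. It stood at 33.2 to 90.2 CPM (median 48.4) in treated PVN and 40.9 to 112 CPM (median 61.3) in vehicle PVN libraries. NTS levels were 16.2 to 82.6 CPM (median 69.7) in treated and 14.4 to 72.5 CPM (median 21.1) in vehicle libraries. The PVN change was not called with all libraries (-0.19 ± 0.26, FDR = 0.907) and the NTS rise was (1.33 ± 0.27, FDR = 0.0198). The difference was -1.52 ± 0.37 (FDR = 0.159), and -1.95 ± 0.28 (FDR = 6.93e-05) without the libraries numbered 1.

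Other members of the AP-1 and Egr families also rose more in NTS. Fosb stood at 10.9 to 48.01 CPM (median 27.2) in the 9 treated PVN and 1.44 to 16.4 CPM (median 3.67) in the 9 vehicle PVN libraries, and at 18.6 to 48.1 CPM (median 29.9) in the 9 treated and 0.139 to 2.66 CPM (median 1.65) in the 9 vehicle NTS libraries. The NTS groups of 9 did not overlap, and the PVN groups did. Its change was called in both regions without the libraries numbered 1 (2.12 ± 0.34 in PVN and 4.38 ± 0.39 in NTS), and so was the difference of -2.26 ± 0.52 (FDR = 0.0401). Fosl2 showed the same pattern at a different base level: its median was 191 CPM in treated and 91.5 CPM in vehicle PVN libraries, and 41.7 CPM in treated and 5.29 CPM in vehicle NTS libraries (difference -1.94 ± 0.31, FDR = 0.000546). A smaller fold change in PVN was here a larger step in CPM. Egr1 and Egr4, zinc finger transcription factors, had differences of -1.50 ± 0.28 and -2.14 ± 0.47. The changes in PVN, 0.14 ± 0.20 and 1.04 ± 0.34, were not called, and those in NTS, 1.64 ± 0.20 and 3.18 ± 0.30, were. With all 40 libraries the differences of Fosb, Fosl2, Egr1 and Egr4 were -0.92, -1.25, -1.13 and -1.79, and none passed (FDR 0.783 or above).

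Further genes called with a negative difference lay outside the AP-1 and Egr families. Rrad, a small GTPase that restrains calcium channels, stood at 17.7 to 46.1 CPM (median 27.5) in the 9 treated and 8.19 to 41.4 CPM (median 16.1) in the 9 vehicle PVN libraries, and at 26.3 to 62.7 CPM (median 48.1) and 3.04 to 9.82 CPM (median 6.12) in the treated and vehicle NTS libraries (difference -2.26 ± 0.36). The PVN groups of 9 overlapped and the NTS groups did not. Nptx1, a synaptic pentraxin, did not pass in PVN (-0.25 ± 0.08, FDR = 0.0914) and rose in NTS (0.55 ± 0.08, FDR = 9.53e-06). Plk2, a kinase that acts at active synapses, was called in opposite directions, -0.26 ± 0.08 in PVN and 0.37 ± 0.08 in NTS (difference -0.63 ± 0.11, FDR = 0.000599). Among inhibitors of MAP kinases, the phosphatase genes Dusp1 and Dusp14 did not pass in PVN (-0.17 ± 0.11 and -0.39 ± 0.17) and rose in NTS (0.53 ± 0.10 and 0.71 ± 0.17), with differences of -0.69 ± 0.15 and -1.10 ± 0.24. The other negative calls were Gm13889 (-0.84 ± 0.20), the small membrane protein gene Smim3 (-0.73 ± 0.17), Arpp21, a cAMP-regulated phosphoprotein (-0.63 ± 0.13), and the actin-binding gene Enc1 (-0.45 ± 0.11). Arpp21 and Enc1 were, like Plk2, called down in PVN, at -0.36 ± 0.10 and -0.27 ± 0.08. All the values of this paragraph are without the libraries numbered 1; with all libraries none of these differences passed (FDR 0.142 or above). Among the negative differences of smallest p with all libraries, Neurod2, a transcription factor of forebrain neurons (-0.87 ± 0.22), Hip1, an endocytosis gene (-0.40 ± 0.10), and Bahcc1 (-0.54 ± 0.16) were called by edgeR in neither fit.

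**Figure D3:**
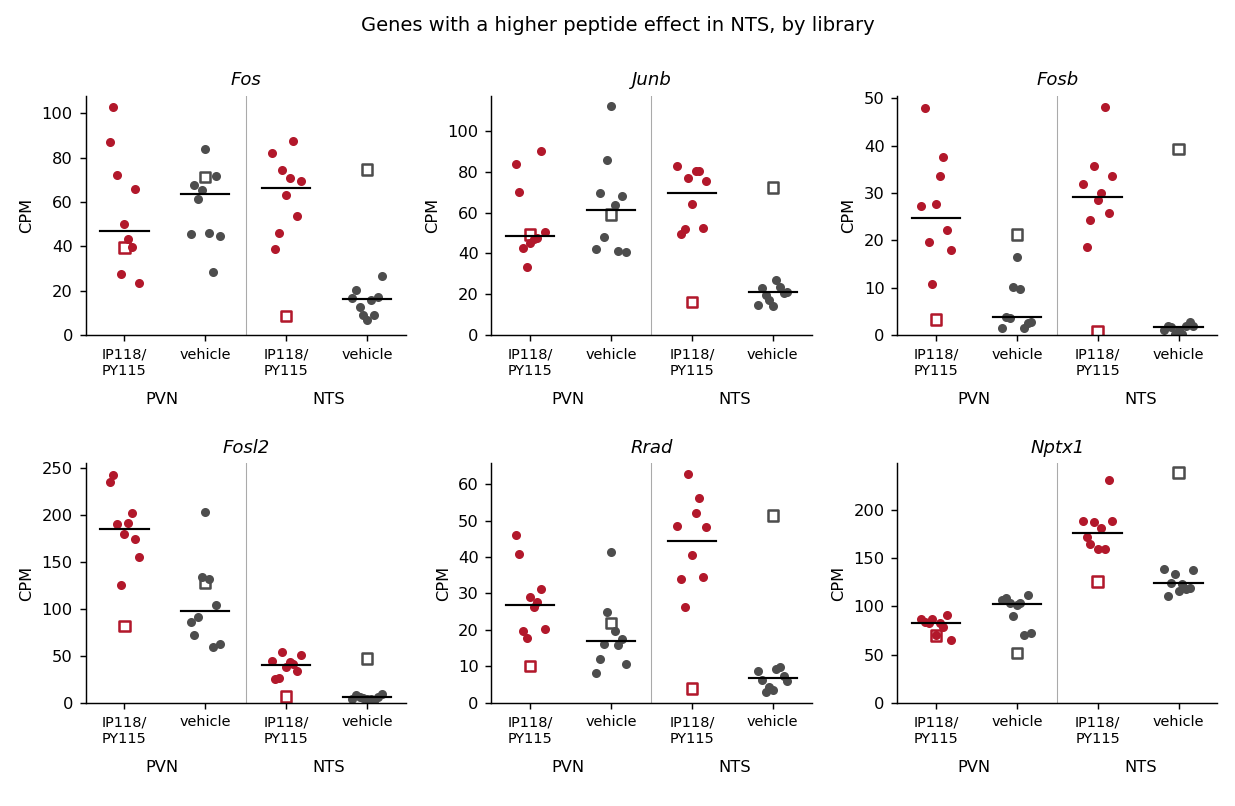
CPM in each library for 6 genes with a negative difference, IP118/PY115 left of vehicle in each region, PVN left of NTS. Filled points are libraries numbered 2 to 10, open squares the libraries numbered 1 and bars the medians of 10; the PVN points of Junb overlap, while its treated NTS points lie at 49.6 to 82.6 CPM, above the vehicle NTS points at 14.4 to 27.1 CPM.

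Vehicle levels were compared between the regions for both kinds of gene. Of the 15 genes with a negative difference, 12 had a higher median in vehicle PVN than in vehicle NTS libraries, and 3 had a higher median in treated PVN than in treated NTS libraries. Of the 35 with a positive difference the same counts were 19 in vehicle and 29 in treated libraries. The vehicle levels enter the difference, so these counts are a description and not a separate test. For Fos the vehicle medians of 9 libraries were 61.2 CPM in PVN and 15.7 CPM in NTS, and for Junb 63.6 and 20.9 CPM.

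Promoter sequence was read for the called genes because the GLP-1 receptor acts through cAMP, whose target CREB binds the cAMP response element TGACGTCA. The 250 bases before each annotated start were taken from RefSeq (GRCm38.p6) for 35 of the 49 called genes that were tested in both fits. Of these, 26 had a positive and 9 a negative difference. A gene with several starts was counted when any of its windows held the letters, so genes with more starts had more windows to match. The comparison set of all genes with a promoter includes genes that were not tested here. The element, which reads the same on both strands, was present before 5 of the 26 genes (19.2%) and 2 of the 9 (22.2%), against 478 of 27025 genes with a promoter (1.77%). It thus occurred on both sides of the difference. Each 30-base window below is written 5′ to 3′ on the strand of the gene, with the element in capitals; the first 5 genes responded more in PVN and the last 2 more in NTS.
Hs3st2 (chr7:121392216-121392245, plus strand): acccgcgcggcTGACGTCAggcgactcctt
Stk38l (chr6:146724855-146724884, plus strand): ctgggtgcgtaTGACGTCAggggcgacccc
Ift57 (chr16:49699121-49699150, plus strand): ccagcatggcgTGACGTCAcgtaagaatcc
Phf8 (chrX:151520607-151520636, plus strand): gccccgccccaTGACGTCAcgcaagagccg
Ppm1d (chr11:85311158-85311187, plus strand): agcgagccgagTGACGTCAtcaggagaaag
Plk2 (chr13:110394971-110395000, plus strand): agcgctcgccgTGACGTCAcgaggccccgc
Dusp1 (chr17:26508597-26508626, minus strand): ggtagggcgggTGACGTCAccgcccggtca
In Hs3st2 the element lay 69 to 62 bases before the start, in Stk38l 64 to 57 and in Plk2 62 to 55. It was at 162 to 155 bases in Ift57, 54 to 47 in Phf8, 85 to 78 in Ppm1d and 143 to 136 in Dusp1.

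The full 250 bases are shown for 1 gene of each side, the kinase genes Stk38l and Plk2, whose elements lie at almost the same distance from the start.
Stk38l (chr6:146724680-146724929, plus strand): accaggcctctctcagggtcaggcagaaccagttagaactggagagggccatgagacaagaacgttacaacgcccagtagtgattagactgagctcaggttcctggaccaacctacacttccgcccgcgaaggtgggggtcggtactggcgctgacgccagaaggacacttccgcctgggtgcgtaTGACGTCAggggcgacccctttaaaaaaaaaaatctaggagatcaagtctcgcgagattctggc
Plk2 (chr13:110394794-110395043, plus strand): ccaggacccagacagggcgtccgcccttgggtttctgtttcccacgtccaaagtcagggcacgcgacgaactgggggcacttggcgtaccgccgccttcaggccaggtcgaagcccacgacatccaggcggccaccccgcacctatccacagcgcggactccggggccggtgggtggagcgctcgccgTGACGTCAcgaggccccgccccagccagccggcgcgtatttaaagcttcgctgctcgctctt
Stk38l stood at 47.7 to 70.8 CPM (median 64.2) in the 9 treated and 31.96 to 44.9 CPM (median 39.4) in the 9 vehicle PVN libraries, with no overlap (difference 0.57 ± 0.11, FDR = 0.00333, and 0.44 ± 0.13 with all libraries). Plk2 stood at 56.7 to 77.6 CPM (median 66.4) in treated and 47.2 to 57.6 CPM (median 51.5) in vehicle NTS libraries, which overlapped. On either strand, the AP-1 site TGANTCA was found before 4 of the 26 genes (15.4%) and 1 of the 9 (11.1%), against 7.82% of all genes, and the Egr site GCGNGGGCG before 2 of the 26 (7.69%) and 2 of the 9 (22.2%), against 5.33%. The AP-1 site of the negative genes lay before Arpp21, which has 9 annotated starts, and was absent from its other windows. The Egr sites of the 9 lay before Fosb and Fosl2. Neither the sterol regulatory element TCACNCCAC (1.22% of all genes) nor the CArG box (1.62%) was found before any of the 35, which says only that these letters are not in the window. No spelled motif contains another.

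Without the libraries numbered 1, 99 genes were called in both regions, which is 23.9% of the 414 called in PVN and 52.9% of the 187 called in NTS. Over all 14053 genes of that fit, 2.16% were called up and 0.79% down in PVN, and 1.11% up and 0.221% down in NTS. Of the 99 genes, 88 rose in both, 10 fell in both and 1 moved in opposite directions, and the difference was called for 4. The overlap is given for this fit alone, whose left-out libraries were chosen by their response in these regions. With all libraries only 18 genes were called in NTS. The 2 comparisons share no library, though they share animals.

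Glucocorticoid-induced genes rose in both regions. All 24 list members had a positive change in each region, with median changes of 0.48 in PVN and 0.59 in NTS, against -0.02 in PVN and about 0 in NTS over all genes. Of the 24, 5 were called up in PVN and 3 in NTS, against 0.831% and 0.114% of all genes. Without the libraries numbered 1 it was 20 and 21, against 2.16% and 1.11% of all genes, with medians of 0.64 and 0.79. The difference was called for 0 of 24 in either fit by edgeR. The list was chosen with earlier results of these data known, so its counts are a description and not a separate test. Cdkn1a, a cell cycle inhibitor, stood at 24.4 to 61.4 CPM (median 43.9) in the 9 treated and 6.35 to 17.98 CPM (median 8.60) in the 9 vehicle PVN libraries, and at 36.3 to 67.3 CPM (median 48.7) and 7.47 to 17.4 CPM (median 12.7) in the treated and vehicle NTS libraries. Its difference was 0.06 ± 0.27, and -0.10 ± 0.53 with all libraries, so that its sign depends on the libraries used. For Map3k6, a kinase of the stress pathway, the difference was -0.09 ± 0.25 between a PVN change of 0.91 ± 0.17 and an NTS change of 0.99 ± 0.18, both called with all libraries. For Fkbp5, a co-chaperone of the glucocorticoid receptor, it was 0.07 ± 0.22, with a sign that turned in 7 alternatives, and for the transcription factor gene Zbtb16 0.24 ± 0.31. With SEs of 0.22 to 0.53, none of the 4 differences is shown to be 0.

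**Figure D4:**
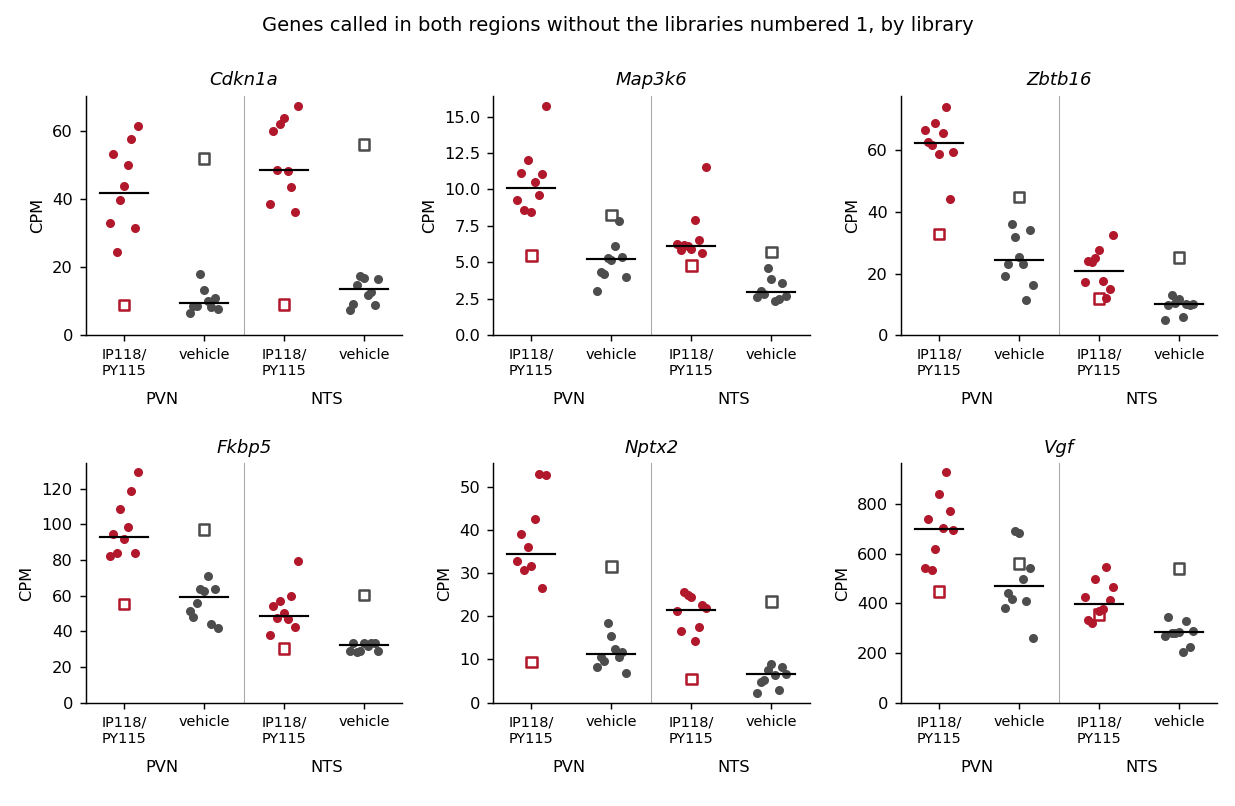
CPM in each library for 6 genes called in both regions without the libraries numbered 1, IP118/PY115 left of vehicle in each region, PVN left of NTS. Filled points are libraries numbered 2 to 10, open squares the libraries numbered 1 and bars the medians of 10; for Cdkn1a the treated points lie at 24.4 to 61.4 CPM in PVN and 36.3 to 67.3 CPM in NTS, above the vehicle points at 6.35 to 17.98 and 7.47 to 17.4 CPM.

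Activity genes were not uniform. Of 20 immediate early transcription factor genes tested, 16 had a negative and 4 a positive difference, with a median of -0.57; none was called with all libraries, and 6 were called negative without the libraries numbered 1 (median -0.76). In PVN the median change of this list was 0.27 and in NTS 0.89. With all libraries 1 and 4 members were called up, against 0.831% and 0.114% of all genes. Of 20 late effector genes, 14 had a negative difference (median -0.13), and 0 were called with all libraries, 2 (Nptx1 and Plk2) without the libraries numbered 1. Some members rose in both regions. Nptx2, a secreted pentraxin that clusters glutamate receptors, had changes of 1.71 ± 0.19 in PVN and 1.81 ± 0.19 in NTS without the libraries numbered 1, and the neuropeptide precursor gene Vgf 0.56 ± 0.14 and 0.58 ± 0.14, all called. With all libraries, of these 4 changes only that of Nptx2 in PVN was called (1.34 ± 0.30, FDR = 0.0179). The difference of Nptx2 was -0.03 ± 0.43 with all libraries and -0.10 ± 0.26 without those numbered 1, and that of Vgf, whose sign turned, 0.05 ± 0.22 and -0.02 ± 0.20. The gene Arc, which acts in synaptic scaling, had a positive difference that did not pass with all libraries (0.52 ± 0.33, FDR = 1) or without those numbered 1 (0.64 ± 0.26, FDR = 0.595), and Nr4a1, an orphan nuclear receptor, a negative one that passed in neither (-1.05 ± 0.50 and -1.22 ± 0.42). Nr4a1 stood at 8.44 to 56.8 CPM (median 39.8) in treated and 8.34 to 37.2 CPM (median 12.04) in vehicle NTS libraries.

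Of 24 genes of the cAMP pathway (CREB, its coactivators, SIK kinases, protein kinase A subunits and phosphodiesterases), 23 were tested, 11 with a positive and 12 with a negative difference (median near 0), and none was called with or without the libraries numbered 1. MAP kinase feedback inhibitors divided 8 to 9 (median -0.01). Clock genes had a negative difference in 17 of 20 (median -0.12) and a median change of -0.07 in PVN and 0.06 in NTS, with 0 called for the difference. The difference was positive for 13 of 20 unfolded protein response genes (median 0.03) and for 9 of 18 inflammation genes (median 0.03). These 5 lists held no gene called for the difference with all libraries, and without the libraries numbered 1 only the MAP kinase inhibitors Dusp1 and Dusp14.

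**Figure D5:**
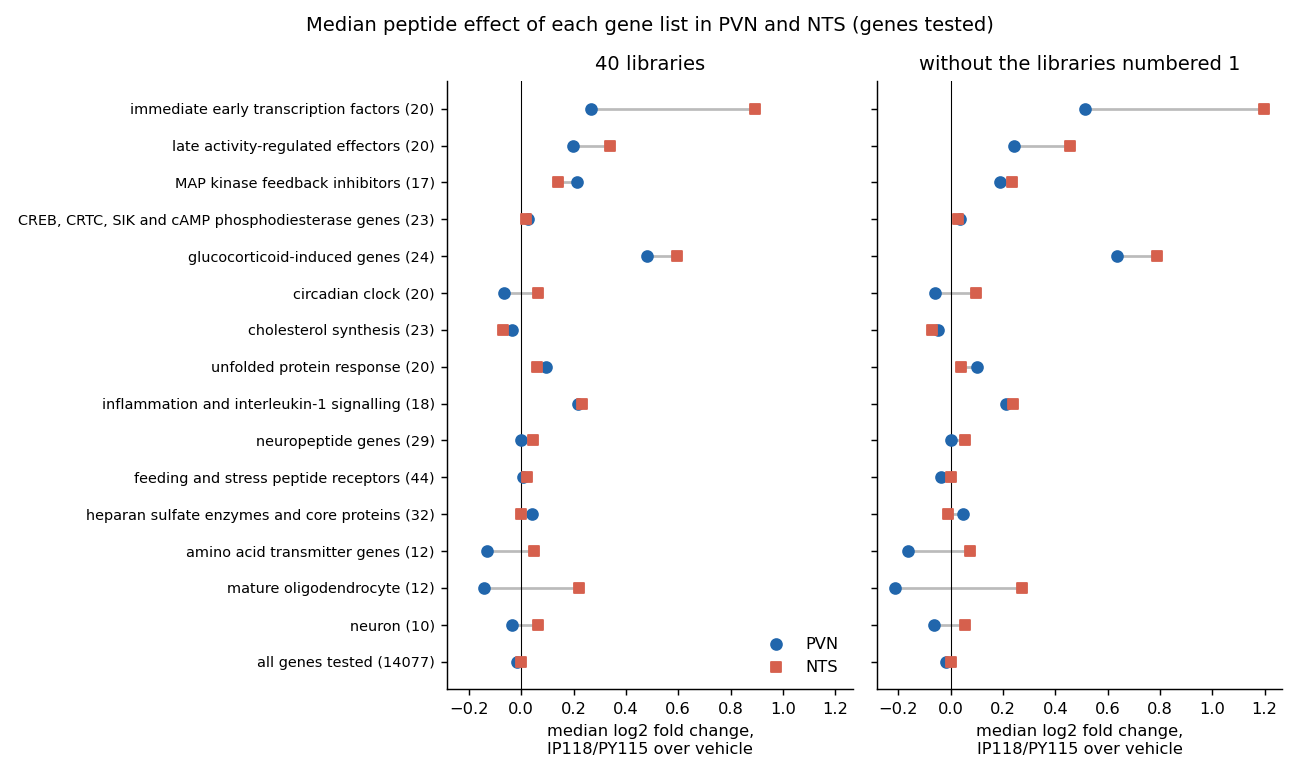
Median log2 fold change of IP118/PY115 over vehicle in PVN (blue circles) and NTS (red squares) for 15 gene lists and for all genes, with all 40 libraries (left) and without the libraries numbered 1 (right). Numbers in brackets are genes tested with all libraries; immediate early factors stand at 0.27 in PVN and 0.89 in NTS, glucocorticoid-induced genes at 0.48 and 0.59, and all genes near 0.

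Among hormone genes, edgeR called no difference in the 40 libraries, with or without those numbered 1. In PVN, Crh, which encodes corticotropin-releasing hormone, stood at 121 to 335 CPM (median 254) in treated and 151 to 311 CPM (median 203) in vehicle libraries, overlapping throughout. Its difference of -1.40 ± 0.64 (FDR = 1) was 0.21 without NTS library 9. The difference of -5.30 ± 1.35 for the thyrotropin-releasing hormone gene Trh (FDR = 0.225) was called by DESeq2 (-7.66, FDR = 0.00178) and in the fit of all 59 libraries (-5.31, FDR = 0.0430), and was -1.37 without that library (FDR = 1). Trh stood at 488 to 627 CPM (median 573) in treated and 493 to 772 CPM (median 590.3) in vehicle PVN libraries. Avp, the vasopressin gene, stood at 4306 to 8269.96 CPM (median 5872) in treated and 3049 to 12691 CPM (median 5359.99) in vehicle PVN libraries, and Oxt, the oxytocin gene, at 5605 to 9086 CPM (median 7394) and 4399 to 8829 CPM (median 7725). Both were at or near 0 in NTS, so that their differences rest on very few NTS counts. Of 29 neuropeptide genes tested, 14 had a positive and 15 a negative difference, and none was called in either fit.

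In NTS, Gcg, the precursor of GLP-1, ranged widely: it stood at 1.71 to 137 CPM (median 7.52) in treated and 0 to 100.4 CPM (median 6.08) in vehicle libraries, and was at or near 0 in PVN. Th, the first enzyme of catecholamine synthesis, had medians of 72.2 and 73.04 CPM in treated and vehicle PVN and 78.7 and 65.7 CPM in treated and vehicle NTS libraries (difference -0.13 ± 0.16 with all libraries and -0.21 ± 0.16 without those numbered 1). Dbh stood at 96.4 to 215 CPM (median 155) in treated and 130.4 to 223 CPM (median 190.4) in vehicle NTS libraries. Npy, the neuropeptide Y gene, stood at 21.05 to 58.2 CPM (median 33.4) in treated NTS against 21.2 to 30.2 CPM (median 26.6) in vehicle NTS libraries, and its difference did not pass with all libraries (-0.41 ± 0.47) or without those numbered 1 (-0.73 ± 0.48).

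The receptor genes Glp1r, Npy2r and Calcr and a list of peptide receptors, which include some that the peptides are not said to act on, had no difference called by edgeR in either fit. Glp1r, the GLP-1 receptor, stood at 11.7 to 20.9 CPM (median 15.1) in treated and 5.15 to 24.5 CPM (median 15.9) in vehicle PVN libraries, and at 0 to 2.98 CPM (median 0.696) and 0 to 1.53 CPM (median 0.810) in treated and vehicle NTS libraries (difference -0.48 ± 0.51 with all libraries, -0.58 ± 0.51 without those numbered 1). Npy2r, the Y2 receptor, had medians of 23.7 and 27.4 CPM in treated and vehicle PVN and 38.7 and 34.8 CPM in treated and vehicle NTS libraries (difference -0.38 ± 0.24 with all libraries, -0.41 ± 0.23 without those numbered 1). Calcr, the calcitonin receptor, had medians of 207 and 201 CPM in PVN and 14.6 and 16.7 CPM in NTS (difference 0.24 ± 0.18 with all libraries, 0.28 ± 0.17 without those numbered 1). Of 44 feeding and stress peptide receptor genes tested, 19 had a positive and 25 a negative difference (median -0.04), and none was called in either fit. The list does not hold Nmbr, the neuromedin B receptor, whose positive difference was called without the libraries numbered 1.

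Several lists of cell type markers had differences mostly of 1 sign, though no marker was called for the difference. All 12 mature oligodendrocyte genes had a negative difference, with a median of -0.40 (-0.55 without the libraries numbered 1), and none was called. Their summed level was 823 to 1349 CPM (median 1017) in treated PVN and 961 to 1378 CPM (median 1052) in vehicle PVN libraries, and 2113 to 9792 CPM (median 5056) in treated and 2282 to 6946 CPM (median 5502) in vehicle NTS libraries. In NTS 11 of the 12 genes had a positive change. The median sum, in which the most abundant genes weigh most, was lower in treated than in vehicle libraries, and the ranges overlapped. Whether composition changed with treatment was not tested. With an oligodendrocyte score, the mean log2 CPM of these 12 genes, as a covariate and all libraries, the count of called differences was 0. Leaving out the libraries numbered 1, it was 65 with the score, and 36 of the 50 genes were among them. Amino acid transmitter genes were negative in 12 of 12 (median -0.18), nuclear-encoded oxidative phosphorylation genes in 66 of 76 (-0.10), cytosolic ribosomal protein genes in 65 of 78 (-0.08), neuron genes in 9 of 10 (-0.12) and astrocyte genes in 11 of 11 (-0.09), against 7818 of 14077 over all genes. Red blood cell genes were positive in 5 of 5 (0.16), with a summed level of 29.9 to 127 and 34.9 to 66.3 CPM in treated and vehicle PVN and 53.6 to 209 and 43.7 to 198 CPM in treated and vehicle NTS libraries. None of these was called, and the sign of the astrocyte median turned with the oligodendrocyte score. For the ribosomal and oxidative phosphorylation lists the sign of the median turned with the oligodendrocyte score (0.09 and 0.10 without the libraries numbered 1). Leaving out 1 library gave medians of -0.12 to 0.04 for the ribosomal list and -0.13 to -0.01 for the oxidative phosphorylation list. The highest ribosomal sum of a vehicle PVN library was 29135 CPM, against a group median of 15642 CPM. For oxidative phosphorylation genes these were 16804 and 11085 CPM. The part of composition in the called genes was otherwise not tested.

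The arcuate nucleus, the third region of the series, shows which of these genes also moved elsewhere. Leaving out the libraries numbered 1 of all 3 regions, 6 of the 34 positive genes and 2 of the 15 negative genes tested there were called up, and none down, against 133 (0.945%) up and 56 (0.398%) down of the 14072 genes tested. With all 59 libraries 0 of these 49 genes were called there, against 19 up (0.135%) and 3 down (0.0213%) of 14077. Arcuate libraries were not placed on the scale between vehicle and treated, so those numbered 1 were left out by their number alone. Without the libraries numbered 1, the 6 included Fam107b (0.80 ± 0.14) and Galnt15 (0.80 ± 0.15), and the 2 were Fosl2 (0.98 ± 0.22) and Smim3 (0.77 ± 0.18). Cyp51 (-0.01 ± 0.06) and Hs3st2 (0.62 ± 0.32) were not called there, nor were Fos (0.35 ± 0.30) and Junb (0.30 ± 0.21), and whether the arcuate effects differ from those of PVN or NTS was not tested.

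On GRCm38, Hs3st2 (ENSMUSG00000046321) lies on chromosome 7 at 121391859 to 121501770, Cyp51 (ENSMUSG00000001467) on chromosome 5 at 4081145 to 4104746 and Fam117a (ENSMUSG00000038893) on chromosome 11 at 95337018 to 95381872. Fos (ENSMUSG00000021250) lies on chromosome 12 at 85473890 to 85477273 and Junb (ENSMUSG00000052837) on chromosome 8 at 84974484 to 84978718. All 5 are protein-coding genes.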

How the data were processed

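Poly-A RNA of laser-captured tissue was sequenced from a stranded kit, per the labels' protocols. The authors deposited raw gene counts. The submitters' processing notes name bcl2fastq 2.20.0.422, STAR 2.5.2a and the build GRCm38. The counter and its strand setting are not given in the sources used here, so overlapping genes are uncertain. Counts of the 40 PVN and NTS libraries were filtered (filterByExpr, minimum count 10), scaled by TMM and fitted as 4 groups in edgeR 4.0.16 (R 4.3.3) with the quasi-likelihood test of the difference of differences. P-values were adjusted over all 14077 genes. CPM in the text are scaled by TMM. The fits were also tested on simulated data, but no outcome of that test is given here. It therefore says nothing about how the calls depend on the libraries used. P-values measure the spread between libraries.

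Named genes were the calls, the 10 smallest p of each sign at a mean of at least 5 CPM, the largest differences called without the libraries numbered 1, the 3 smallest p of each list and a set of activity, hormone and receptor genes. In addition, other genes called without those libraries were named after their values were seen. Genes and lists were chosen with earlier results of these data known. Alternatives used DESeq2 1.42.0, limma 3.58.1 and sva 3.50.0, other scalings, filters, covariates and sets of libraries. Arcuate libraries entered 1 alternative and the arcuate values.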

Additional observations from a re-analysis of the deposited data

Results flagged for a closer look

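The difference between the PVN and NTS effects was called for Cyp51 (0.66) and Fam117a (1.29) with all libraries, by the edgeR test of the difference itself. In 235 sets of 10 libraries of one gene and group with a mean of at least 1 CPM, 52 had a single library far from the others, where chance gives about 1 in 20. Of these, 44 were libraries numbered 1. Many of these 62 genes were chosen because their difference was called or large once those libraries were left out, so that the comparison with chance says nothing about them.

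In the IP118/PY115 PVN library 1, the lowest value of its group in CPM was 119 for Cyp51, 40.97 for Fam222b, 3.03 for Hs3st2, 84.2 for Akap7, 16.9 for Fam107b, 7.39 for Rasl11b, 4.14 for Nmbr, 33.3 for Rnf169, 6.06 for Galnt15, 10.8 for Arc, 9.47 for Nptx2, 55.2 for Fkbp5, 8.87 for Cdkn1a, 121 for Crh, 26.1 for F2r, 570.3 for Tsc22d1 and 0.148 for Orc1. In the vehicle PVN library 1, the highest value of its group in CPM was 198 for Cyp51, 16.4 for Hs3st2, 80.97 for Rnf169, 51.9 for Cdkn1a and 873 for Tsc22d1. In the vehicle PVN library 1, the lowest value of its group in CPM was 15.3 for Bahcc1. In the IP118/PY115 NTS library 1, the lowest value of its group in CPM was 16.2 for Junb, 11.6 for Dusp1, 0.852 for Fosb, 3.92 for Rrad, 8.61 for Fos, 6.73 for Fosl2, 17.8 for Egr1, 8.44 for Nr4a1, 5.54 for Nptx2 and 8.95 for Cdkn1a. In the vehicle NTS library 1, the highest value of its group in CPM was 68.7 for Plk2, 72.5 for Junb, 11.1 for Dusp14, 39.3 for Fosb, 51.4 for Rrad, 47.05 for Fosl2, 57.9 for Gm13889, 239 for Nptx1, 6.93 for Egr4, 60.4 for Fkbp5 and 56.05 for Cdkn1a.

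In the vehicle PVN library 2, the lowest value of its group in CPM was 3.01 for Dusp14. In the IP118/PY115 NTS library 2, the highest value of its group in CPM was 17.9 for Wif1. In the IP118/PY115 NTS library 9, the highest value of its group in CPM was 43.6 for Trh, 56.1 for Crh, 509 for Tsc22d1 and 98.2 for C1ql1. In the vehicle NTS library 7, the lowest value of its group in CPM was 5.37 for C1ql1. In the vehicle NTS library 8, the lowest value of its group in CPM was 16.7 for Stk38l.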

How the results depend on the processing

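The count of called differences, 2 with all libraries, was 5 at an FDR of 0.1, 20 with DESeq2, 34 with limma-voom and quality weights, 13 in a fit of all 59 libraries and 21 with each region fitted alone. It was 0 with log10 library total as a covariate (535 at an unadjusted p under 0.05), 0 with the oligodendrocyte score (636) and 0 without the 3 late-numbered vehicle PVN libraries (698). Without the libraries numbered 1 it was 50, and 38, 65, 66 and 53 when log10 library total, the oligodendrocyte score, the late-numbered libraries or treated NTS library 9 were also dealt with; these 4 combinations were chosen after seeing the data. Of the 50 genes, 36, 36, 44 and 49 were called in them.

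The PVN count, 145, was 555 with limma-voom, 88 alone, 33 with log10 total, 21 with the oligodendrocyte score, 219 with 2 surrogate variables, 414 without the libraries numbered 1, 46 without the late-numbered libraries, 61 without libraries of low total, and 268, 307, 352 and 399 in the 4 combinations. The NTS count, 18, was 51 at an FDR of 0.1, 57 with DESeq2, 59 with limma-voom, 32 with all 59 libraries, 0 alone (763 at an unadjusted p under 0.05), 41 with the oligodendrocyte score, 28 with surrogate variables, 187 without the libraries numbered 1, and 182, 270, 221 and 169 in the combinations. Leaving out 1 library gave 1 to 21 differences, with 21 without vehicle PVN library 1, 20 without treated PVN library 1, 11 without vehicle NTS library 1 and 5 without vehicle NTS library 2. It was 4 without vehicle PVN library 10, vehicle NTS libraries 4, 6, 8 or 9 or treated NTS library 6, and 1 without treated PVN library 2, 3, 5, 6, 7, 8 or 10. It gave 69 to 281 PVN genes, with the lowest count without treated PVN library 8 and the highest without vehicle PVN library 1, and 1 to 84 NTS genes, with the lowest without treated NTS library 10 and the highest without vehicle NTS library 1.

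The differences of 10 genes turned sign. Vgf was -0.022 with limma-voom, -0.047 with log10 total, -0.098 with the oligodendrocyte score, -0.023 without the libraries numbered 1, -0.052 without the late-numbered libraries, and -0.14, -0.18, -0.13 and -0.023 in the combinations. Fkbp5 was -0.015 with log10 total (-0.035 also without the libraries numbered 1), -0.19 with the score (-0.22), -0.038 without the late-numbered libraries (-0.020) and -0.0094 without low totals. Cdkn1a was 0.088 with limma-voom, 0.055 without the libraries numbered 1 and 0.00052 also without treated NTS library 9. Map3k6 was 0.026 with limma-voom and 0.0091 and 0.029 with log10 total or without the late-numbered libraries, both without the libraries numbered 1. Npy was 0.021 with log10 total, 0.074 with the score (0.13 also without the libraries numbered 1) and 0.13 without low totals. Gcg was 0.49 without the late-numbered libraries (0.26 also without those numbered 1) and 1.32 with the score and without those numbered 1. Nptx2 was 0.025 with DESeq2 and Zbtb16 -0.059 with the score without the libraries numbered 1. Without those and treated NTS library 9, Crh was 0.32 and C1ql1 0.059. Leaving out 1 library gave ranges of -0.49 to 0.45 for Cdkn1a, -1.53 to 0.21 for Crh, -0.058 to 0.17 for Fkbp5, -2.08 to 0.48 for Gcg, -0.19 to 0.049 for Map3k6, -0.36 to 0.23 for Nptx2, -0.59 to 0.073 for Npy and -0.080 to 0.12 for Vgf. The cause was not tested. No paired analysis was possible because the labels do not tie libraries to animals. Depth limits genes near 0 CPM in a region, such as Gcg in PVN and Avp in NTS.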
